A study of Mus musculus with 6 samples.

Results

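The 38 genes described here encode the signalling chains of the T-cell receptor (TCR) and the proteins that act first when it is engaged. They are a list of TCR complex and proximal signalling genes, chosen by name with earlier results of these data known. They were matched by mouse symbol to the 49315 Ensembl gene identifiers in the deposited files. Each of the 38 matched 1 identifier, and all 38 were among the 12838 genes kept by a filter on low counts. By role they fall into 4 receptor chains, 6 coreceptor, costimulation and adhesion receptors, 5 kinases, 9 adaptors and scaffolds, 7 effectors and 7 brakes.

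When a peptide held by an MHC molecule engages the TCR, the kinase Lck, brought in by the coreceptor, phosphorylates the tails of the CD3 and zeta chains. Zap70 docks on these tails and phosphorylates the adaptors Lat and Lcp2, which gather Plcg1, Vav1 and others and pass the signal to the calcium, Ras and NF-kB pathways. Csk, a set of phosphatases and inhibitory adaptors hold the pathway back, so that resting and antigen-experienced T cells can respond differently to the same ligand.

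RNA sequencing was available for 6 libraries, 1 per condition, of CD4 T cells with the CBir1 TCR transgene (Tg), which recognises a flagellin of commensal gut bacteria. For 5 of them, 2000000 CD45.1 donor CD4+CD44- cells were given on day 0 to C57BL/6 recipients carrying CD45.2, which then received 50 ug CBir1 flagellin with 1 ug CT i.p. on days 1 and 7. The study asked how such cells differ after antigen is met again while their metabolism is inhibited. In 4 groups, 3 ug MEP1 was injected i.v. on days 28 and 35, each time followed by 5 daily i.p. injections: metformin and rapamycin together in CMC (MEP1+Metformin+Rapamycin, called the combination below), rapamycin in CMC (MEP1+Rapamycin), metformin in CMC (MEP1+Metformin) or the vehicle CMC alone (MEP1+CMC). The No treatment recipients had neither MEP1 nor an inhibitor in that period. The protocol gives a challenge of every recipient with 3 ug MEP1 i.v. on day 56, with splenic donor cells sorted on day 63. The last library, the naive CD4 control, was of CBir1 TCR Tg CD4 T cells from spleen, and its cells carry the same transgene. How that control was handled, the doses of the inhibitors and whether a library came from 1 mouse or several are not in the sources used here.

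Total counts ran from 26139000 in the naive control to 60622310 in No treatment, with 32321936 in MEP1+Rapamycin. Reads of 5 ribosomal RNA-like loci made up 15.4% of the counts in the naive control, 3.13% in MEP1+Rapamycin and 1.00% to 1.28% in the other 4 libraries. The labelled cell type was visible in each library, with Cd8a and Cd8b1 summing to 3.23 to 6.61 TMM CPM (counts divided by an effective library size from the trimmed mean of M-values, TMM, on the CPM scale) in the transferred libraries and 30.3 in the naive control, far below Cd4. A list of 14 macrophage markers summed to 465 to 785 TMM CPM in the 4 MEP1 libraries, 3874 in No treatment and 82.2 in the naive control, where Fcgr1 and Cd14 were at 0. The 6 erythroid markers summed to 51.4 to 359 TMM CPM in the MEP1 libraries, 1695 in No treatment and 380.4 in the naive control. Xist, transcribed from the inactive X chromosome of females, was at 0.218 to 0.486 TMM CPM in the 3 inhibitor libraries, 262 in MEP1+CMC, 24.2 in No treatment and 43.1 in the naive control. The Y-linked gene Eif2s3y was at 73.3 to 86.9 TMM CPM in the inhibitor libraries, 0.256 in MEP1+CMC, 28.6 in No treatment and 0.0538 in the naive control, so an inhibitor and the sex of the source mice cannot be told apart in comparisons with MEP1+CMC. When No treatment or an inhibitor library is set against the naive control, sex cannot be told apart from transfer either. The header of the No treatment counts says no challenge, which its label and the protocol do not, and the label was followed.

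**Figure D1:**
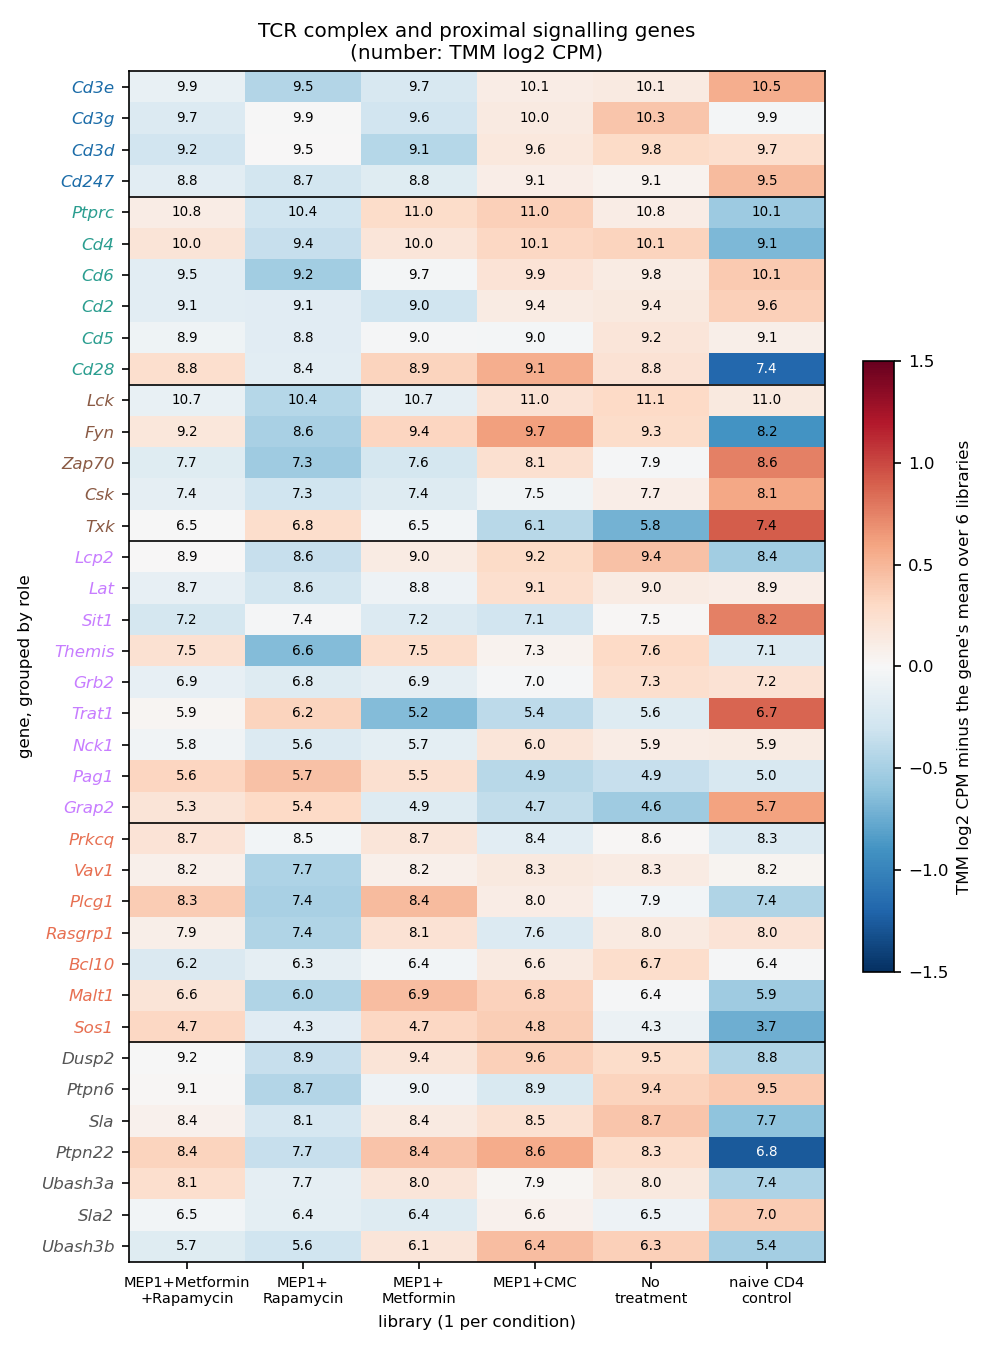
Level of each of the 38 genes (rows, grouped and coloured by role) in each of the 6 libraries (columns), as TMM log2 CPM; the colour gives the level minus the gene's mean over the 6 libraries. Cd28 and Ptpn22 stand out as low in the naive control, and Txk, Trat1 and Zap70 as high there.

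Promoter windows were looked up for the members in RefSeq sequences of build GRCm38.p6, covering 250 bases before and 50 bases after each start. Of the 38 members, 31 had at least 1 window, and 42 windows belonged to them among 32851 in all. The windows of Cd3g and Cd3d are shown because these 2 receptor chains are transcribed away from each other from starts 1355 bases apart on chromosome 9. Those of Fyn, Trat1 and Grap2 are shown because these members differed in the comparisons below, Fyn in the direction opposite to Trat1 and Grap2. The windows lie at chr9:44980382-44980681 (minus strand), chr9:44981536-44981835 (plus), chr10:39369549-39369848 (plus), chr16:48772013-48772312 (minus) and chr15:80623233-80623532 (plus). Each is printed 5′ to 3′ on the gene's strand, and capitals mark every match, on either strand, to 1 of 6 motifs: Ets core GGAAGT, E-box CAGGTG, Runx core TGTGGT, Tcf1/Lef1 core CTTTGA, Foxo core GTAAACA and the TATA box TATAAA.
Cd3g: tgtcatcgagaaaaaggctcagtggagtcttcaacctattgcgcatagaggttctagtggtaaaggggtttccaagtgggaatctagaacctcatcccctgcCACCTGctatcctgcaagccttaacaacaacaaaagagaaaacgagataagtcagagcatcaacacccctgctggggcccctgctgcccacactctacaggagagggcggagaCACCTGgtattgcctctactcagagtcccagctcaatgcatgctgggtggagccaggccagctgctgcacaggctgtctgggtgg
Cd3d: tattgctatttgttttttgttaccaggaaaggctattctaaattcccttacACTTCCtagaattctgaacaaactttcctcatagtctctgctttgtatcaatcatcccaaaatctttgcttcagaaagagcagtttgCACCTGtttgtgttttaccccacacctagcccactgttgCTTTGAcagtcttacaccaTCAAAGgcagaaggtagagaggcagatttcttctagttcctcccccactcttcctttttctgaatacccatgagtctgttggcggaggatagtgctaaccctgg
Fyn: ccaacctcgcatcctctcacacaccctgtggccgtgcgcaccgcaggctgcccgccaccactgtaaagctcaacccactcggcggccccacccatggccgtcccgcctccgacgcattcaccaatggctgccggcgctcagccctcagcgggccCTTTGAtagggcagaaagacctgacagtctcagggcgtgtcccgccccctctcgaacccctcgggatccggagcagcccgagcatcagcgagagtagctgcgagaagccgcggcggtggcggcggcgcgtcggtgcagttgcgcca
Trat1: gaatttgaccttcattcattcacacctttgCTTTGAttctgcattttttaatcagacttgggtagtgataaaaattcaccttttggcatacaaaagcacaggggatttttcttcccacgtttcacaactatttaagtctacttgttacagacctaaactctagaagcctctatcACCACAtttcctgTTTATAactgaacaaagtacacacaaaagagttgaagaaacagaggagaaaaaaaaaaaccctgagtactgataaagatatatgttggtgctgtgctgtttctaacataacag
Grap2: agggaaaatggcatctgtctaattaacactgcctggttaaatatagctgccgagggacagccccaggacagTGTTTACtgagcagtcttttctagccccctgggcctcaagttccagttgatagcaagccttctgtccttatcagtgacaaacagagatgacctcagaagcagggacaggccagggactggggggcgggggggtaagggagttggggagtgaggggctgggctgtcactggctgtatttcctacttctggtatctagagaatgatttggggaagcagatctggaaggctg
In these windows the E-box occurs in both Cd3g and Cd3d, GGAAGT in Cd3d, CTTTGA in Cd3d, Fyn and Trat1, TGTGGT and TATAAA in Trat1, and GTAAACA in Grap2. Over the 42 member windows, the Ets core was in 40.5%, against 23.8% of all 32851 windows, and the E-box in 40.5%, against 20.2%. TGTGGT was in 19.0% of member windows and 16.8% of all, CTTTGA in 21.4% and 16.0%, GTAAACA in 2.38% and 3.65%, and TATAAA in 9.52% and 13.6%. Genes with several starts have several windows, a match is a run of letters rather than a site of binding, and no match says only that the letters are not in that window.

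Levels were compared between genes per length, as TPM (reads per base of exon, scaled to 1 sum per library) averaged over the 6 libraries. Lck was the most abundant member at 1141 TPM, ahead of Cd3d at 715, the adhesion receptor Cd2 at 643 and the MAP kinase phosphatase Dusp2 at 597. The receptor chains spanned 171 to 715 TPM, and the coreceptor, costimulation and adhesion group 132 to 643. The least abundant members were Txk at 15.2 TPM, Pag1 at 8.15 and Sos1 at 4.97. The lowest count of any member in any library was 241, and the widest 95% counting interval of a log2 ratio between 2 libraries spanned 0.41. Intervals cover counting error only, because PCR copies of a molecule were not told apart, and there were no replicates. In these bulk libraries, fewer cells of a type and less RNA per cell cannot be told apart.

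On the TMM scale, no receptor chain passed 1.5-fold in any of the 7 comparisons below, and with library totals Cd3g did in 1, No treatment against the naive control. Cd3e (chromosome 9, 44998740 to 45009627, GRCm38, counted over its exons), a CD3 chain that carries an activation motif in its tail, had 936 TMM CPM in the combination, 745 in MEP1+Rapamycin, 859.8 in MEP1+Metformin, 1096 in MEP1+CMC, 1111 in No treatment and 1481 in the naive control. Cd3g (chromosome 9, 44969572 to 44980431), its partner, had 830.2 TMM CPM in the combination, 955 in MEP1+Rapamycin, 784 in MEP1+Metformin, 1052 in MEP1+CMC, 1278 in No treatment and 938 in the naive control. Both were lowest in libraries given an inhibitor, Cd3e in MEP1+Rapamycin and Cd3g in MEP1+Metformin, while Cd3e was highest in the naive control and Cd3g in No treatment. Cd3d (chromosome 9, 44981786 to 44987339), the other CD3 partner of Cd3e, had 589 TMM CPM in the combination, 724 in MEP1+Rapamycin, 535 in MEP1+Metformin, 799 in MEP1+CMC, 876 in No treatment and 857 in the naive control. Cd247, the zeta chain with several activation motifs, had 461 TMM CPM in the combination, 426 in MEP1+Rapamycin, 451 in MEP1+Metformin, 549 in MEP1+CMC, 531 in No treatment and 711 in the naive control. On the TMM scale the naive control thus lay above all 5 transferred libraries for Cd3e and Cd247 and among them for Cd3g and Cd3d. The place of the naive control depended on the scaling throughout: it was highest for 12 of the 38 members and lowest for 13 with TMM, and highest for 2 (Csk and Sit1) and lowest for 26 with library totals, and the orders given below are those of the TMM scale.

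Among the receptors that work beside the TCR, Cd4 and Cd28 were lowest in the naive control. Cd4 (chromosome 6, 124864692 to 124888221), the coreceptor that brings Lck to MHC class II ligands, had 1017 TMM CPM in the combination, 695 in MEP1+Rapamycin, 1008 in MEP1+Metformin, 1097 in MEP1+CMC, 1116 in No treatment and 557 in the naive control. Cd28 (chromosome 1, 60716800 to 60773359), the main costimulatory receptor, had 447 TMM CPM in the combination, 338 in MEP1+Rapamycin, 475 in MEP1+Metformin, 549 in MEP1+CMC, 437 in No treatment and 167 in the naive control. Ptprc, the CD45 phosphatase that removes the inhibitory phosphate from Lck, had 1763 TMM CPM in the combination, 1327 in MEP1+Rapamycin, 1980 in MEP1+Metformin, 2089 in MEP1+CMC, 1766 in No treatment and 1120 in the naive control. MEP1+Rapamycin was the lowest of the transferred libraries for all 3, still above the naive control. Cd6, a scavenger-type receptor that modulates TCR signals, ran the other way in the naive control, with 743 TMM CPM in the combination, 579 in MEP1+Rapamycin, 812 in MEP1+Metformin, 954 in MEP1+CMC, 901 in No treatment and 1088 in the naive control. Cd2, an adhesion receptor, and Cd5, a modulator of TCR signals, had 509 to 801 and 452 to 576 TMM CPM over the 6 libraries.

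The kinases divided by gene. Fyn (chromosome 10, 39368855 to 39565381), a Src-family kinase beside Lck, had 599.9 TMM CPM in the combination, 383 in MEP1+Rapamycin, 668 in MEP1+Metformin, 817 in MEP1+CMC, 647 in No treatment and 287 in the naive control. Lck (chromosome 4, 129548344 to 129573641) had 1685 TMM CPM in the combination, 1352 in MEP1+Rapamycin, 1662 in MEP1+Metformin, 2115 in MEP1+CMC, 2235 in No treatment and 2015 in the naive control. Fyn was lowest in the naive control and Lck in MEP1+Rapamycin, and MEP1+Rapamycin was the lowest transferred library for both. Zap70 (chromosome 1, 36761798 to 36782818), the kinase that binds the phosphorylated receptor tails, had 209 TMM CPM in the combination, 163 in MEP1+Rapamycin, 197 in MEP1+Metformin, 279 in MEP1+CMC, 234 in No treatment and 399 in the naive control. Txk (chromosome 5, 72695978 to 72752777), a kinase of the Tec family, had 92.4 TMM CPM in the combination, 111 in MEP1+Rapamycin, 90.3 in MEP1+Metformin, 69.7 in MEP1+CMC, 56.9 in No treatment and 174 in the naive control. Both were highest in the naive control, and among the transferred libraries Zap70 was lowest in MEP1+Rapamycin where Txk was highest. Csk, which puts the inhibitory phosphate on Lck and Fyn, had 154 to 203 TMM CPM in the transferred libraries and 282 in the naive control.

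Of the adaptors, Lat and Lcp2 form the core of the signalling complex. Lat (chromosome 7, 126363824 to 126369570), the membrane anchor of that complex, had 421 TMM CPM in the combination, 379 in MEP1+Rapamycin, 436 in MEP1+Metformin, 543 in MEP1+CMC, 498 in No treatment and 489 in the naive control. Lcp2, the cytosolic adaptor that joins it, had 484 TMM CPM in the combination, 380.2 in MEP1+Rapamycin, 523 in MEP1+Metformin, 591 in MEP1+CMC, 656 in No treatment and 337 in the naive control. Grap2 (chromosome 15, 80623505 to 80650559), which links Lat to Lcp2, had 39.4 TMM CPM in the combination, 42.3 in MEP1+Rapamycin, 29.9 in MEP1+Metformin, 26.6 in MEP1+CMC, 23.7 in No treatment and 52 in the naive control. Lcp2 was thus lowest in the naive control, Grap2 highest there, and Lat within the range of the transferred libraries. Trat1 (chromosome 16, 48734690 to 48771956), a transmembrane adaptor that associates with the zeta chain, had 57.7 TMM CPM in the combination, 71.8 in MEP1+Rapamycin, 36.2 in MEP1+Metformin, 43.1 in MEP1+CMC, 49.5 in No treatment and 104 in the naive control. Sit1 (chromosome 4, 43482081 to 43483734), a transmembrane adaptor with inhibitory activity, had 144 TMM CPM in the combination, 172 in MEP1+Rapamycin, 151 in MEP1+Metformin, 142 in MEP1+CMC, 176 in No treatment and 293 in the naive control. The transmembrane adaptor Pag1, which recruits Csk to the membrane, had 48.7 TMM CPM in the combination, 53 in MEP1+Rapamycin, 46.3 in MEP1+Metformin, 29.4 in MEP1+CMC, 30.8 in No treatment and 33.1 in the naive control. Trat1 and Sit1 were highest in the naive control, whereas Pag1 was higher in all 3 inhibitor libraries than in the other 3. Themis, a regulator of TCR signals best known from thymocyte selection, had 179 TMM CPM in the combination, 97.4 in MEP1+Rapamycin, 184 in MEP1+Metformin, 158 in MEP1+CMC, 189 in No treatment and 133 in the naive control. MEP1+Rapamycin was the lowest of the 6 for Themis. Grb2 and Nck1, adaptors to Ras and to the actin skeleton, had 114 to 154 and 48.5 to 63.8 TMM CPM.

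The effectors carry the signal on from the Lat complex. Plcg1, the phospholipase that starts calcium and diacylglycerol signals, had 309 TMM CPM in the combination, 169 in MEP1+Rapamycin, 330.3 in MEP1+Metformin, 256 in MEP1+CMC, 231 in No treatment and 174 in the naive control. Malt1, the paracaspase of the complex that leads to NF-kB, had 99 TMM CPM in the combination, 63.4 in MEP1+Rapamycin, 119 in MEP1+Metformin, 109.8 in MEP1+CMC, 85.4 in No treatment and 59.8 in the naive control. Vav1, which joins the complex of Lat and Lcp2, had 296 TMM CPM in the combination, 203 in MEP1+Rapamycin, 294 in MEP1+Metformin, 309 in MEP1+CMC, 306 in No treatment and 288 in the naive control. Plcg1 and Vav1 were lowest in MEP1+Rapamycin, and Malt1 in the naive control with MEP1+Rapamycin next. Sos1, an exchange factor for Ras, had 26.8 TMM CPM in the combination, 19.2 in MEP1+Rapamycin, 26.8 in MEP1+Metformin, 27.8 in MEP1+CMC, 20.3 in No treatment and 13 in the naive control. Bcl10, the partner of Malt1, had 75.3 to 104 TMM CPM, Prkcq, the protein kinase C form of the T-cell synapse, 324 to 428, and Rasgrp1, the Ras exchange factor that senses diacylglycerol, 167 to 265.

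Most of the brakes were lowest in the naive control. Ptpn22 (chromosome 3, 103859795 to 103912247), a phosphatase that acts on Lck and Zap70, had 327 TMM CPM in the combination, 204 in MEP1+Rapamycin, 349 in MEP1+Metformin, 380.3 in MEP1+CMC, 312 in No treatment and 108 in the naive control. Sla, an adaptor that lowers surface TCR in thymocytes, had 330.0 TMM CPM in the combination, 265 in MEP1+Rapamycin, 347 in MEP1+Metformin, 369 in MEP1+CMC, 421 in No treatment and 207 in the naive control. Dusp2, which dephosphorylates MAP kinases, had 605 TMM CPM in the combination, 477 in MEP1+Rapamycin, 694 in MEP1+Metformin, 778 in MEP1+CMC, 733 in No treatment and 443 in the naive control. All 3 were lowest in the naive control and next lowest in MEP1+Rapamycin. Ubash3b and Ubash3a, related suppressors of TCR signals, followed. Ubash3b had 53.2 TMM CPM in the combination, 49.1 in MEP1+Rapamycin, 68.4 in MEP1+Metformin, 83.6 in MEP1+CMC, 77.4 in No treatment and 42.4 in the naive control. Ubash3a had 272 TMM CPM in the combination, 207 in MEP1+Rapamycin, 257 in MEP1+Metformin, 232 in MEP1+CMC, 252 in No treatment and 165 in the naive control. Ptpn6, a phosphatase of inhibitory receptors, had 405 to 690.4 TMM CPM in the transferred libraries and 718 in the naive control. Sla2, a relative of Sla, had 83.7 to 100.3 TMM CPM in the transferred libraries and 125 in the naive control.

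**Figure D2:**
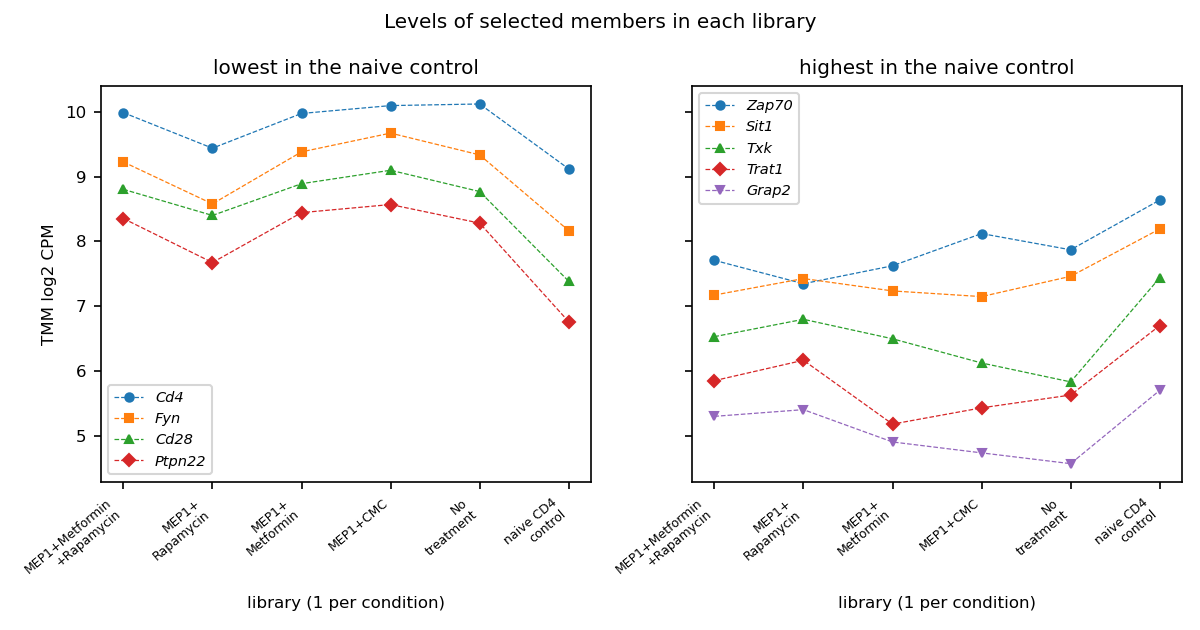
TMM log2 CPM (vertical axis) of 4 members that were lowest and 5 that were highest in the naive control, in each of the 6 libraries (horizontal axis); dashed lines only join the points of 1 gene, and no library has a replicate. Cd4, Fyn, Cd28 and Ptpn22 dip together in MEP1+Rapamycin, where Txk, Trat1 and Grap2 are above MEP1+CMC.

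The first comparison, No treatment against the naive control, sets cells from immunised recipients beside cells labelled naive. That the former were challenged rests on the protocol, which the header of their counts does not match. Ptpn22, Cd28, Fyn, Sla and Cd4 were higher in No treatment by at least 2-fold, and Txk, Grap2 and Trat1 were lower. Of the 38 members, 8 passed the size rule (at least 2-fold, counting interval excluding no change), 5 higher and 3 lower, which is 21.1% of them, against 24.0% of the 12838 kept genes (16.4% higher, 7.54% lower). The log2 ratio was 1.52 for Ptpn22 (95% counting interval 1.46 to 1.59), 1.39 for Cd28 (1.33 to 1.44), 1.17 for Fyn (1.13 to 1.21), 1.02 for Sla (0.97 to 1.07) and 1.00 for Cd4 (0.97 to 1.03). It was -1.61 for Txk (-1.68 to -1.54), -1.13 for Grap2 (-1.25 to -1.01) and -1.07 for Trat1 (-1.16 to -0.99). At the wider rule of 1.5-fold, 16 members passed, 42.1% of them against 40.6% of kept genes (11 higher against 24.4%, 5 lower against 16.1%). The wider rule added Lcp2 (0.96), Ubash3b (0.87), Dusp2 (0.73), Ptprc (0.66), Sos1 (0.65) and Ubash3a (0.61) on the higher side, and Zap70 (-0.77) and Sit1 (-0.73) on the lower side. On the TMM scale the receptor chains stayed within it, with 0.45 for Cd3g, 0.03 for Cd3d, -0.41 for Cd3e and -0.42 for Cd247, as did Lck at 0.15 and Lat at 0.03; with library totals Cd3g passed it and Cd3e and Cd247 came to no difference, and with DESeq2 size factors and TMM over kept genes Cd3d and Lat turned slightly negative.

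By role, the median log2 ratio of No treatment over the naive control was 0.73 for the brakes, of which 5 of 7 passed the wider rule, all higher, and 0.37 for the coreceptor, costimulation and adhesion group. It was 0.27 for the effectors, -0.01 for the adaptors, -0.19 for the receptor chains and -0.47 for the kinases. The brakes Ptpn6 and Sla2 were lower on the TMM scale. Ubash3a did not pass the wider rule with DESeq2 size factors or TMM over kept genes. The brakes depend on the grouping, since Csk, Sit1 and Pag1 also hold the pathway back but were placed among kinases and adaptors. Csk and Sit1 were lower, at 203 and 176 TMM CPM in No treatment against 282 and 293 in the naive control. Pag1 was close in both, at 30.8 against 33.1, and turned higher in No treatment with library totals. Over all 38 members the median was 0.09, against 0.08 for the kept genes. Scaling by library totals moved the median of the kept genes to 0.50 and gave 11 members 2-fold higher and 1 lower. With library totals, 25.2% of kept genes were 2-fold higher and 3.56% lower. Relative to the kept-gene median, 3 members were 2-fold higher (Cd28, Fyn and Ptpn22) and 3 lower (Grap2, Trat1 and Txk). This held under each of 4 scalings, against 15.4% of kept genes higher and 8.997% lower. The summed macrophage markers were 3874 TMM CPM in No treatment and 82.2 in the naive control, and their part in these differences was not tested. Ribosomal RNA-like reads were 1.00% in No treatment and 15.4% in the naive control, and Eif2s3y differed between the 2 libraries. Neither part was tested.

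**Figure D3:**
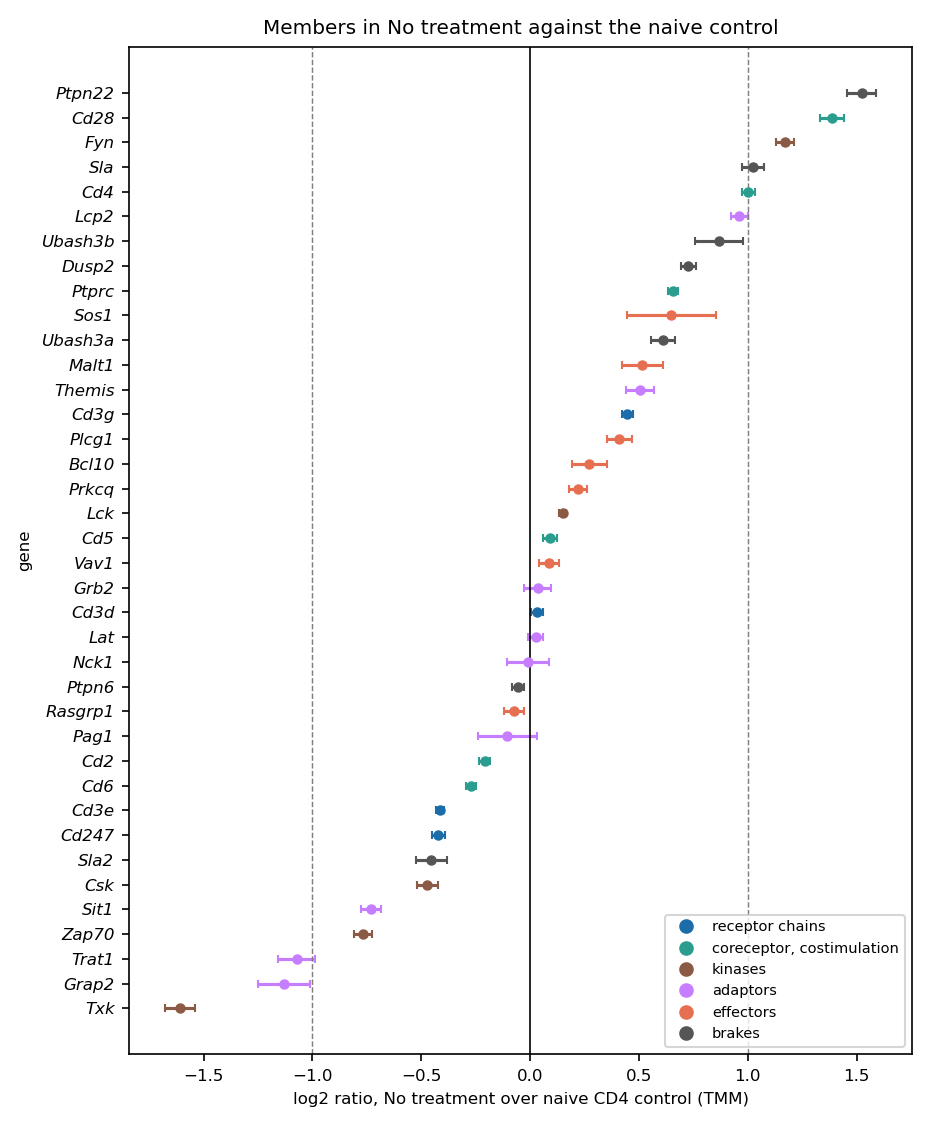
TMM log2 ratio of No treatment over the naive CD4 control (horizontal axis) for each of the 38 members (vertical axis, sorted), with 95% counting intervals as bars and colours for roles; dashed lines mark 2-fold. Ptpn22 at 1.52 and Txk at -1.61 are the ends of the range, and the 4 receptor chains lie between -0.42 and 0.45.

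With all 5 transferred libraries set against the naive control, an edgeR quasi-likelihood model across the 12838 genes called 3 of the 38 members at an adjusted p below 0.05 (7.89%, against 9.81% of all genes, of which 4.19% rose and 5.62% fell). Cd28 rose, with a log2 fold change of 1.43 (SE 0.31, edgeR adjusted p 0.0228), and so did Ptpn22, with 1.54 (SE 0.36, edgeR adjusted p 0.0279). Sit1 fell by 0.90 (SE 0.21, edgeR adjusted p 0.0294). For each of the 3, all 5 transferred libraries lay on the same side of the naive control. The next members by p were Txk at -1.05 (edgeR adjusted p 0.0581), Trat1 at -1.01 (0.0676) and Zap70 at -0.88 (0.07), none of which passed. Before adjustment, 15 members had p below 0.05, as had 3565 of all genes. DESeq2 called 12 members, and 3398 of all genes. Library totals gave 14 members, all 14 of them higher, and 2672 of all genes, of which 2482 rose. Sit1 did not pass with library totals (edgeR adjusted p 0.245; 0.00106 to 0.245 over the alternatives), and leaving out 1 transferred library in turn gave 1 to 8 members, with 1 left when the combination was removed and 8 when No treatment was. Over all genes, the fit without the combination called 718 and the fit without No treatment 3022. The model has 4 residual degrees of freedom, its spread holds treatment differences too, and the single naive library is assumed to vary like the others. The naive library also had 15.4% ribosomal RNA-like reads. It differed in Eif2s3y from every transferred library except MEP1+CMC, and neither part was tested.

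MEP1+CMC against No treatment sets the MEP1 injections with vehicle beside none. That both were challenged rests on the protocol, which the header of the No treatment counts does not match. The same holds for the model of the 4 MEP1 libraries below. None of the 38 members passed 2-fold (11.5% of kept genes did) or 1.5-fold (21.3% did). The extremes were Ptpn6 at -0.56 (-0.58 to -0.54) and Sos1 at 0.45 (0.34 to 0.56), and the median was -0.02, against -0.04 for the kept genes. Macrophage markers summed to 785 TMM CPM in MEP1+CMC and 3874 in No treatment, and Xist was at 262 and 24.2 TMM CPM, and whether they bear on Ptpn6 was not tested. When edgeR set the 4 MEP1 libraries against No treatment, 0 members were called, with 1.9% of all genes called. Before adjustment, 1 member had an edgeR p below 0.05, as had 2237 of the 12838 genes. DESeq2 called 0 members and 974 of all genes. The lowest member p was that of Txk (log2 fold change 0.67, SE 0.27, edgeR adjusted p 0.249; 0.121 to 0.428 for the lowest member over the alternatives), which was higher in all 4 MEP1 libraries than in No treatment.

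Rapamycin against the vehicle was the drug comparison with the most members past 1.5-fold. In MEP1+Rapamycin against MEP1+CMC, 32 of 38 members were lower (against 61.3% of kept genes; 29 members with library totals or TMM over kept genes), Fyn the most, while Pag1, Trat1, Txk and Grap2 were higher. A single member, Fyn, passed 2-fold (-1.09, -1.12 to -1.07), against 11.0% of kept genes. At 1.5-fold, 15 members were lower (39.5%, against 15.4% of kept genes) and 4 were higher (10.5%, against 11.1%). The lower ones covered every role except the receptor chains. They were the kinases Fyn, Zap70 (-0.77) and Lck (-0.64); the receptors Cd6 (-0.72), Cd28 (-0.70), Cd4 (-0.66) and Ptprc (-0.66); the adaptors Themis (-0.70) and Lcp2 (-0.64); the effectors Malt1 (-0.79), Vav1 (-0.61) and Plcg1 (-0.60); and the brakes Ptpn22 (-0.90), Ubash3b (-0.77) and Dusp2 (-0.71). The higher ones were Pag1 at 0.85 (0.76 to 0.94), Trat1 at 0.74 (0.66 to 0.81), Txk at 0.67 (0.61 to 0.74) and Grap2 at 0.67 (0.57 to 0.77). The receptor chains were all lower by less, between -0.56 for Cd3e and -0.14 for Cd3g and Cd3d, and the last pair turned slightly positive with library totals and with TMM over kept genes.

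How many members passed in MEP1+Rapamycin against MEP1+CMC depended on the scaling. The median of the 38 members was -0.44, against -0.13 for the kept genes, and with library totals the 2 medians were -0.27 and 0.03. Relative to the median of the kept genes, 6 members were 1.5-fold lower (Cd6, Fyn, Malt1, Ptpn22, Ubash3b and Zap70) and 4 higher (Grap2, Pag1, Trat1 and Txk) under each of the 4 scalings, against 10.7% of kept genes lower and 14.6% higher on that scale. With library totals and without that shift, 1 member was 2-fold higher (Pag1) and none 2-fold lower. MEP1+Rapamycin was the lowest of the 5 transferred libraries for 27 of the 38 members, against 38.8% of kept genes, and for 19 of 38, against 25.7%, with TMM over kept genes alone. It had the fewest counts of the transferred libraries and the most ribosomal RNA-like reads, 3.13%, whose part was not tested, and its Xist level of 0.486 TMM CPM stands against 262 in MEP1+CMC.

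The same drug can be read in a second pair that shares no library with the first, the combination against MEP1+Metformin, where both libraries had metformin and Xist was at 0.323 and 0.218 TMM CPM. There, none of the 38 members passed 2-fold (2.98% of kept genes did), and Trat1 alone passed 1.5-fold, at 0.67 (0.59 to 0.75), against 8.34% of kept genes. In this pair the ratio was lower for genes with a longer summed exon length (Spearman's rho -0.39 over the members and -0.17 over kept genes). Trat1 is the shortest member, at 684 bases. Trat1 and Grap2 were higher in both rapamycin pairs, Grap2 at 0.40 in the second. Ubash3b (-0.36) and Malt1 (-0.27) were lower in both, and so was Fyn, at -0.16 (-0.18 to -0.13). Zap70 was not, with 0.08 (0.05 to 0.12) in the second pair, and Lck was near no change there, at 0.02 (0.01 to 0.03), with the sign turned by library totals and by TMM over kept genes. The median of the members was 0.01 there, against 0.03 for the kept genes. Across the pairs, 22 of 38 members had the same sign, 17 lower and 5 higher, against 53.6% of kept genes, and 27, against 57.6%, with library totals.

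**Figure D4:**
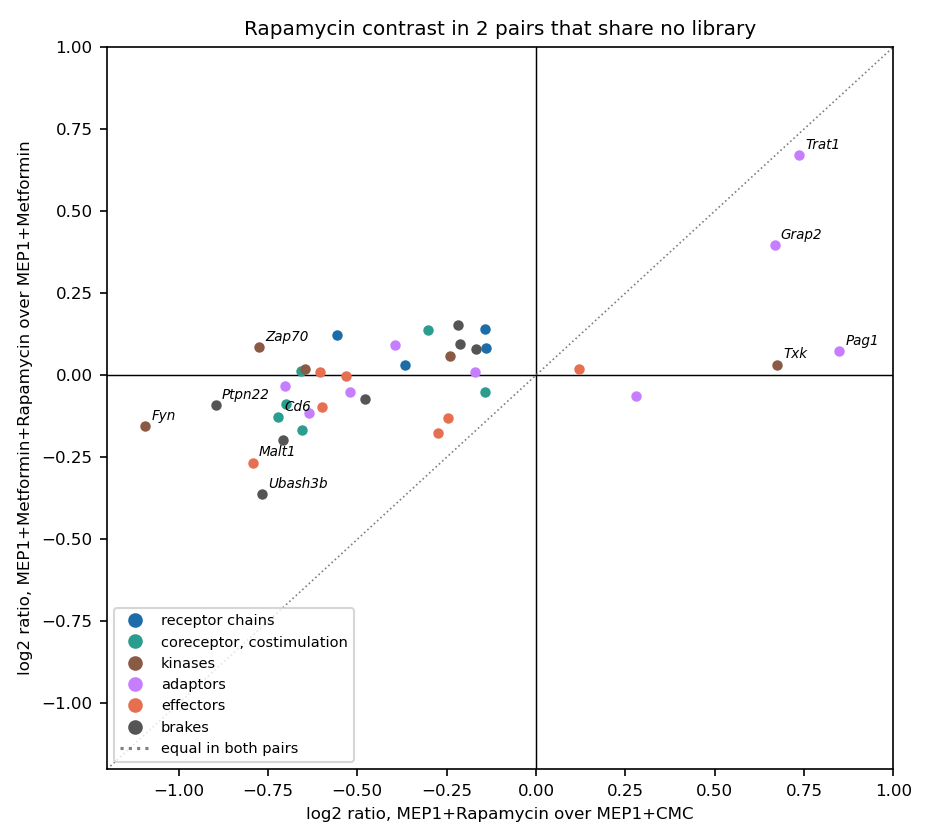
TMM log2 ratio of MEP1+Rapamycin over MEP1+CMC (horizontal axis) and of the combination over MEP1+Metformin (vertical axis) for the 38 members, coloured by role; the dotted line marks equal ratios. The horizontal spread from -1.09 to 0.85 is wider than the vertical one, and Trat1, at 0.74 and 0.67, lies near the line.

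In the additive edgeR model of the 4 MEP1 libraries, the rapamycin term called 0 of the 38 members, with 0.203% of all genes called. Before adjustment, 5 members had an edgeR p below 0.05, as had 808 of the 12838 genes. DESeq2 called 0 members and 59 of all genes. Trat1 had the lowest member p, with a log2 fold change of 0.70 (SE 0.20, edgeR adjusted p 0.298; 0.0637 to 0.934 over 7 alternatives). The next were Ubash3b at -0.56 (SE 0.21), Grap2 at 0.53 (SE 0.21), Malt1 at -0.53 (SE 0.21) and Fyn at -0.62 (SE 0.26). The model's 1 residual degree of freedom measures how far these 4 libraries depart from drug effects that add up. Of the 4, MEP1+CMC alone had high Xist. That difference enters both drug terms and the residual, and its part was not tested.

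Few members differed between metformin and the vehicle. In MEP1+Metformin against MEP1+CMC, none of the 38 members passed 2-fold (5.63% of kept genes did), and Pag1 alone passed 1.5-fold, at 0.65 (0.56 to 0.74), against 15.0% of kept genes. All 4 receptor chains were lower, from -0.58 for Cd3d to -0.28 for Cd247, and the effectors Rasgrp1 (0.42), Plcg1 (0.37) and Prkcq (0.35) were higher. The member median was -0.13, against -0.04 for the kept genes, and turned to 0.02, against 0.11, with library totals. Over members, the ratio was higher for genes with a longer summed exon length of the gene in the files (Spearman's rho 0.43 over 38 genes of the same 2 libraries, and 0.34 over the 12838 kept genes), a description across genes that are not independent.

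In the combination against MEP1+Rapamycin, which shares no library with the pair above, 30 of the 38 members were higher, against 61.3% of kept genes, and 23 members, against 47.4%, with TMM over kept genes. None passed 2-fold (6.33% of kept genes did) and 5 were 1.5-fold higher (13.2%, against 13.4% of kept genes). They were Themis (0.88, 0.83 to 0.94), Plcg1 (0.87, 0.83 to 0.91), Ptpn22 (0.68), Fyn (0.65) and Malt1 (0.64), and none was 1.5-fold lower (8.95% of kept genes were). MEP1+Rapamycin also enters the comparison with MEP1+CMC above, where all 5 were 1.5-fold lower. The higher ratios here and the lower ratios there share that library and are not independent. Relative to the median of the kept genes, Plcg1 and Themis were 1.5-fold higher under each of the 4 scalings. The member median was 0.32, against 0.13 for the kept genes, and 0.16 with TMM over kept genes. Across the 2 metformin pairs, 12 of 38 members had the same sign, against 55.0% of kept genes, and 21, against 60.5%, with library totals. Plcg1, Themis and Rasgrp1 were higher in both, with 0.21 for Themis in MEP1+Metformin over MEP1+CMC and 0.54 for Rasgrp1 in the combination over MEP1+Rapamycin. Their summed exon lengths are 7857, 9031 and 5600 bases. In the combination over MEP1+Rapamycin too, the ratio was higher for longer genes (Spearman's rho 0.39 over the 38 members and 0.32 over kept genes). The metformin term of the additive edgeR model called 0 of 38 members, with 0.164% of all genes called. Before adjustment, 3 members had an edgeR p below 0.05, as had 923 of the 12838 genes. DESeq2 called 0 members and 20 of all genes. The lowest member p was that of Plcg1 (log2 fold change 0.62, SE 0.22, edgeR adjusted p 0.676, with 0.261 to 0.923 for the lowest member over the alternatives).

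With both inhibitors, in the combination against MEP1+CMC, none of the 38 members passed 2-fold (6.7% of kept genes did). At 1.5-fold, 2 members passed, Pag1 higher at 0.73 (0.64 to 0.82) and Ubash3b lower at -0.65 (-0.72 to -0.58), against 16.0% of kept genes. All 4 receptor chains (-0.44 to -0.23) and all 6 coreceptor, costimulation and adhesion receptors (-0.36 to -0.04) were lower, except that Cd4 and Cd5 turned slightly positive with library totals. Pag1 was therefore 1.5-fold higher in each inhibitor library than in MEP1+CMC, 3 ratios that share that library. Fyn was at -0.45 in the combination, against -1.09 in MEP1+Rapamycin and -0.29 in MEP1+Metformin, each over MEP1+CMC.

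**Figure D5:**
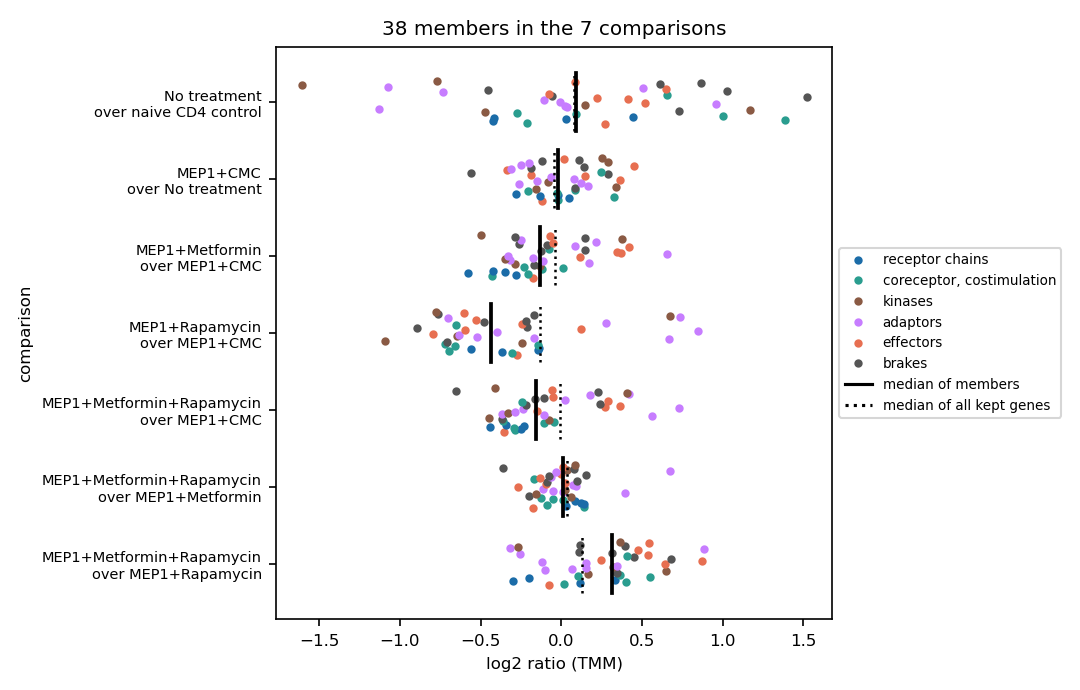
TMM log2 ratios of the 38 members (points, coloured by role) in the 7 comparisons (rows), with the median of the members as a solid line and of all 12838 kept genes as a dotted line. The members spread most in No treatment over the naive control, from -1.61 to 1.52, and their median lies furthest from that of all genes in MEP1+Rapamycin over MEP1+CMC, -0.44 against -0.13.

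Among the 5 transferred libraries alone, the members had about the median range of all genes. The median distance between the highest and lowest library was 0.69 on the log2 scale, against 0.70 for the kept genes, and 37 of 38 members stayed below 1, against 72.5% of kept genes. These shares are not matched for level, since no member had fewer than 241 counts in any library and kept genes include sparser ones. Fyn had the widest range at 1.09, followed by Trat1 at 0.99, Plcg1 at 0.97 and Txk at 0.97. The narrowest were Sla2 at 0.26 and Sit1 at 0.31.

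Other genes of the pathway came from a list of 86, of which 85 were kept. In No treatment against the naive control, 14 of the 85 were 2-fold higher (16.5%, against 16.4% of kept genes) and 4 lower (4.71%, against 7.54%). They included Spry1, a feedback inhibitor of the Ras pathway (5.10, 4.50 to 5.78), the MAP kinase phosphatase Dusp4 (3.02, 2.38 to 3.74) and the costimulatory receptor Icos (2.63, 2.52 to 2.73). The scaffold Gab2 was at 4.17 TMM CPM in No treatment and had no count in the naive control, so its log2 ratio was at least 4.69 against a floor of 3 counts. In MEP1+Rapamycin against MEP1+CMC, 6 of 85 were 2-fold lower (7.06%, against 5.83% of kept genes) and none higher (5.15% of kept genes were), among them the inhibitory adaptor Lax1 (-1.74, -1.78 to -1.70), Gab2 (-1.70, -2.60 to -0.89), the SLAM adaptor Sh2d1a (-1.51, -1.56 to -1.45) and Spry1 (-1.35, -1.45 to -1.26). In the combination against MEP1+CMC 3 were lower (3.53%, against 3.68% of kept genes), Sh2d1a (-1.10), the ERK phosphatase Dusp6 (-1.05) and Spry1, just past 2-fold. In MEP1+CMC against No treatment, Gab2 was lower (-1.67) and the kinase Tec (1.10) and Lax1 (1.01) were higher. Gab2 was lower in the combination than in MEP1+Metformin (-1.19), and none of the 85 passed in the other 2 comparisons. The Gab2 ratios rest on few counts, since it was at 4.17 TMM CPM in No treatment and lower still in MEP1+CMC and MEP1+Rapamycin.

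The edgeR model of transferred against naive called 12 of the 85, 8 higher and 4 lower, against 4.19% of all genes that rose and 5.62% that fell. With library totals it called 31 higher and 2 lower, against 2482 of all 12838 genes that rose and 190 that fell. DESeq2 called 17 higher and 6 lower, against 2108 of all genes that rose and 1290 that fell. Those with the smallest p were Was, a regulator of actin, which fell by 1.46 (SE 0.21, edgeR adjusted p 0.00478), the kinase Akt1, which rose by 2.19 (SE 0.32, edgeR adjusted p 0.0048), the phosphatase Ptpn11 (1.85, edgeR adjusted p 0.00811) and Dusp4 (3.25, edgeR adjusted p 0.0103). The constant segments of the TCR itself are near-identical between Trbc1 and Trbc2, so reads may be shared between these 2. Trbc2 had 30240.0 TMM CPM in the combination, 37684 in MEP1+Rapamycin, 27948 in MEP1+Metformin, 45834 in MEP1+CMC, 42811 in No treatment and 110064 in the naive control. Trbc1 had 1098 to 1513 TMM CPM in the transferred libraries and 3074 in the naive control. In the edgeR model of transferred against naive, Trbc2 fell by 1.58 (edgeR adjusted p 0.0317) and Trbc1 fell by 1.19 (edgeR adjusted p 0.0228). Trac, the alpha constant segment, had 1103 to 1737 TMM CPM in the transferred libraries and 1156 in the naive control, with a log2 ratio of 0.59 in No treatment over the naive control.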

How the data were processed

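The 6 libraries of mouse CBir1 TCR Tg CD4 T cells, 1 per condition, were grouped by the submitters' labels. The authors deposited whole-number counts of reads over the exons of each gene, not normalized. Trimmomatic 0.36, STAR 2.5.2b, featureCounts (Subread 1.5.2) and build GRCm38 are named per the submitters' processing notes. Strand setting and handling of multiply aligned reads are not given in the sources used here, so reads of antisense neighbours and near-identical copies may be shared. Of 49315 identifiers, 48970 had a symbol.

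TMM factors over all genes, computed with edgeR 4.0.16 in R 4.3.3, were 1.11 for the combination, 1.15 for MEP1+Rapamycin, 1.14 for MEP1+Metformin, 1.02 for MEP1+CMC, 0.949 for No treatment and 0.711 for the naive control. Genes were kept with at least 2 TMM CPM and 10 counts in at least 1 library. Ratios of 2 libraries carry exact 95% Clopper-Pearson intervals of the 2 counts (Python 3.11.15, scipy 1.17.1), with a floor of 3 counts for a count of 0. A gene passed at 2-fold, or 1.5-fold under the wider rule, when its interval also excluded no change. Models used edgeR's quasi-likelihood test (robust) with Benjamini-Hochberg adjustment over 12838 genes, and their p-values rest on the spread of libraries that differ in treatment. Ratios and models were run on simulated data, with Poisson counts for the ratios and a fixed dispersion for the models. The simulated libraries differed only by the planted changes, so these runs do not bear on the spread between the real libraries. Alternatives were DESeq2 1.42.0, other scalings and filters, edgeR's older dispersion method, removal of a gene length trend and leaving out a library.

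The members, roles and lists were chosen with earlier results of these data known. Values in every library are given for members past 1.5-fold in any comparison or called by a model, the receptor chains, Cd4, Cd28, Lck, Zap70 and Lat, and ranges for the rest. Other pathway genes are named up to 4 per comparison by size and up to 4 by model p. Over the 6 libraries, markers of B, plasma, NK and neutrophil cells summed to 32.3 to 125, 198 to 384, 5.33 to 116 and 0.0869 to 12.8 TMM CPM.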

Additional observations from a re-analysis of the deposited data

Results flagged for a closer look

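Each inhibitor could be read in separate pairs of libraries, without and with the other inhibitor. For 5 members the pairs lay on opposite sides of no change, with both 95% counting intervals excluding it and at least 1 pair past 1.5-fold. These are values on the TMM scale, and the pairs have no replicates, so the difference between them was not tested.

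For rapamycin, Lck had a log2 ratio of -0.64 in MEP1+Rapamycin over MEP1+CMC and 0.02 in the combination over MEP1+Metformin. Zap70 had -0.77 and 0.08 in the same pairs. For metformin, Fyn had -0.29 in MEP1+Metformin over MEP1+CMC and 0.65 in the combination over MEP1+Rapamycin. In these pairs Ptpn22 had -0.13 and 0.68, and Pag1 had 0.65 and -0.12. Zap70 and Pag1 met the same criterion under all 4 scalings. Lck met it with TMM only, Fyn also with library totals, and Ptpn22 also with DESeq2 size factors. Xist was at 0.218 to 0.486 TMM CPM in the inhibitor libraries and 262 in MEP1+CMC, which enters the first pair of each drug only, and its part was not tested.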

How the results depend on the processing

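At 1.5-fold in place of 2-fold, members past the rule numbered 16 in No treatment against the naive control (8 at 2-fold), 19 in MEP1+Rapamycin against MEP1+CMC (1), 1 in MEP1+Metformin against MEP1+CMC (0), 2 in the combination against MEP1+CMC (0), 1 in the combination against MEP1+Metformin (0) and 5 in the combination against MEP1+Rapamycin (0). At 2-fold, removing the trend with gene length gave 5 members in No treatment against the naive control, in place of 8. In MEP1+Rapamycin against MEP1+CMC it gave 0, in place of 1. This alternative, TMM over kept genes, edgeR's older dispersion method, the counts relative to the median of the kept genes and the signs under each scaling were chosen after seeing the data. Other scalings and filters left the 2-fold counts within 1.5 times in all 7 comparisons, but in MEP1+Rapamycin against MEP1+CMC the 1 member was Pag1, higher, with library totals and TMM over kept genes, in place of Fyn, lower. In the transferred model, 3 members became 14 with library totals, 12 with DESeq2, 6 with the stricter filter of 20 TMM CPM and 5 each with DESeq2 size factors, TMM over kept genes and the older dispersion method. Leaving out 1 library gave 1 to 8, with 6 without MEP1+Rapamycin. Cd28 was called in 12 of 12 alternatives, Ptpn22 in 11 and Sit1 in 8. The cause was not tested. The MEP1 model and both drug terms stayed at 0 members in the alternatives run, and no library can be left out of the drug terms, since 0 residual degrees of freedom would remain. Over all genes, DESeq2 called 3398 in the transferred model and library totals 2672, against 1259 with edgeR on the TMM scale. The stricter filter called 1531 of 7900 genes, DESeq2 size factors 1501, TMM over kept genes 1333 and the older dispersion method 2287. Leaving out 1 library gave 718 to 3022 genes, with 1385 without MEP1+Rapamycin. No paired analysis was possible because each condition has 1 library. The lowest member count was 241, and no condition has a replicate to give its spread.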
